A study of Homo sapiens with 6 samples.

Results

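The genes described here are the zinc finger genes of human chromosome 19 whose symbol is ZNF, a number and at most 1 further letter. A gene was taken when its symbol had this form and the deposited transcript table placed it on chromosome 19, which gave 263 of the 35993 genes in the table. Another 281 genes with such a symbol lie on other chromosomes. They were measured by RNA-seq of MIA PaCa-2, a human pancreatic carcinoma cell line, in 3 control libraries from untreated cells and 3 libraries from cells given recombinant human cytoglobin (rhCYGB, the heme protein that the study added to the medium) at 4 µM for 48 h. Per the labels, cells stood in low-serum medium from the day before treatment, and the study describes the control only as untreated. One cell line, one concentration and one time point were sequenced. The labels do not say whether libraries came from separate cultures, so p-values measure the spread between these libraries, which may be technical.

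Most of these genes encode C2H2 zinc finger proteins, in which a pair of cysteines and a pair of histidines hold a zinc ion and each finger contacts a few bases of DNA. Fingers stand in long tandem arrays joined by a short linker, and many of the proteins carry a KRAB box near the start. The KRAB box binds the scaffold protein TRIM28 (KAP1), which brings the histone methyltransferase SETDB1, heterochromatin protein 1 and histone deacetylases to DNA, and the proteins are best known for silencing transposable elements. The genes multiplied by tandem duplication, which is why chromosome 19 holds them in clusters of close relatives.

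The repeat unit that the family shares is shown for the 2 largest rises, the largest fall and the most abundant of the 8 largest rises that lack a KRAB pattern. Each line is the coding strand of the first finger with the spacing of 2, 12 and 3 residues between the metal-binding residues (21 residues) and the 7 residues that follow it, 84 bases read from GENCODE 29 transcripts on GRCh38, with the codons of both cysteines and both histidines in capitals. All 4 lie in coding exons, at chr19:57291133-57291216 (plus strand) in ZNF460, chr19:12016354-12016437 (minus) in ZNF433, chr19:40013925-40014008 (plus) in ZNF546 and chr19:55644836-55644919 (plus) in ZNF581.
ZNF460: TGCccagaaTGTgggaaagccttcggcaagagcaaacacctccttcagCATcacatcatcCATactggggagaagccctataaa
ZNF433: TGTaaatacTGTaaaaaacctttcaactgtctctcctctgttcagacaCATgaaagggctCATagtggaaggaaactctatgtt
ZNF546: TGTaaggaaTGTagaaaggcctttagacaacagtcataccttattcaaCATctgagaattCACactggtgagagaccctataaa
ZNF581: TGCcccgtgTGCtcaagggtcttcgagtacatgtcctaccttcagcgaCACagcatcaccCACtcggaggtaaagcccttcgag

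The translated proteins held 11 fingers in ZNF460, 18 in ZNF433, 22 in ZNF546 and 4 in ZNF581, in 562, 673, 836 and 197 residues. Over the 247 members with a translated transcript, the median was 12 fingers and the maximum 36, against a median of 9 in the like-named genes of other chromosomes. A KRAB letter pattern was found in 211 of these 247 proteins (85.4%) and in 111 of 263 (42.2%) elsewhere. So the chromosome 19 genes were mostly of the KRAB type, and the others carried it less often.

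Start-site sequence is shown for a member that rose 3.74-fold (ZNF274), a member that fell 3.95-fold (ZNF546) and the gap between the neighbours ZNF580 and ZNF581, which moved apart. The lines are the RefSeq bases upstream of the start that lie outside GENCODE 29 exons, on GRCh38.p14, plus strand, with GGGCGG on either strand (the GC box, a site for factors of the Sp family) in capitals. ZNF274 had 4 in 218 bases at chr19:58182811-58183028, ZNF546 had 1 in 226 bases at chr19:39996810-39997035, and ZNF581 had 0 in 77 bases at chr19:55643470-55643546. The longer window around the ZNF581 start, chr19:55643399-55643698, did hold GGGCGG, so the 0 describes these 77 bases only. The stretches differ in length, and their counts were not compared.
ZNF274: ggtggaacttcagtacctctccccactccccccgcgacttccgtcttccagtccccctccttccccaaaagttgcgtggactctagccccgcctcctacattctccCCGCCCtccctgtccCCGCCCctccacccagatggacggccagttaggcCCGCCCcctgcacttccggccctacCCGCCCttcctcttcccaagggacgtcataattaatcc
ZNF546: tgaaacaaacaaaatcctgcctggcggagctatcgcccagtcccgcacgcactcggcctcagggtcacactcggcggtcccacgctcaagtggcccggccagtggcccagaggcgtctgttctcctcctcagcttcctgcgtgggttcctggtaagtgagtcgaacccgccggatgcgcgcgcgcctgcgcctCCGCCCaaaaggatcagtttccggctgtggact
ZNF581: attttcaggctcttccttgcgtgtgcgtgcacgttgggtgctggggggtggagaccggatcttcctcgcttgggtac

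Windows of 300 bases around RefSeq starts (250 before, 50 after) were found for 216 members, 268 windows in all. GGGCGG stood in 64.9% of them, in 56.4% of the windows of like-named genes elsewhere and in 45.0% of all 35116 windows. Among members called higher at 2-fold it stood in 82.1% of 28 windows, and among those called lower in 56.2% of 16. The E2F-type motif TTTGGCGC was in 3.73% of the members' windows (10 of 268) and in 0.652% of all windows, and 4 of those 10 belonged to members that were not tested and 6 to members not called at 2-fold. TGACGTCA, the cyclic AMP response element, was in 3.73% against 1.85% of all, and in 3.14% of the windows of like-named genes elsewhere. The member windows with it included those of the cluster mates ZNF266, ZNF426, ZNF121, ZNF561 and ZNF562, and overlapping windows of ZNF875. TGATGCAA, an ATF4-type element, was in 0.373% against 0.866%, and TTTCCCGC, another E2F-type motif, in 1.12% against 1.63%. In like-named genes elsewhere TTTGGCGC was in 0.697% of windows, TGATGCAA in 0.348% and TTTCCCGC in 3.48%. These shares describe letters in a window, on both strands, and were not tested.

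Libraries held 34838399 to 42271299 counts assigned to genes. Of the 263 members, 34 had 0 counts in all 6 libraries, 18 more were removed by the filter on low counts and 211 were tested, so each count below is out of 211 unless another total is given. A count of 0 allows up to 3 counts, which is 0.0669 to 0.0902 CPM (counts scaled to library size) by library. Single members were weakly expressed: the median FPKM (fragments scaled to transcript length and to mapped reads) of the tested members in control libraries was 1.69, with quartiles of 0.966 and 2.97, against 3.13 for like-named genes elsewhere, 8.22 for other chromosome 19 genes and 5.45 for all genes tested. Of the epithelial markers looked up, the keratins KRT8, KRT18 and KRT19 were abundant, but EPCAM had 0 counts and CDH1 at most 2. VIM, whose protein the study used as a marker of pancreatic stellate cells, was abundant too. Of 6 markers of other cells, PTPRC, PECAM1, DCN, INS and PRSS1 were at 0 in all libraries and COL1A1 had 6, 10 and 6 counts in control and 0 in each rhCYGB library. In bulk RNA, fewer cells of a state and less RNA per cell cannot be told apart, which holds for every result that follows.

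Together the members made up 0.229%, 0.229% and 0.235% of the counts in the control libraries and 0.280%, 0.281% and 0.290% in the rhCYGB libraries. The groups did not overlap, at 0.231% ± 0.00338 (SD, n = 3) and 0.284% ± 0.00533 (SD, n = 3). Counts were found for 218 to 225 members in each library, so the larger share did not come with more members detected.

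Gene by gene, more members passed the test upwards than downwards. With the edgeR quasi-likelihood test and Benjamini-Hochberg adjustment over all 14728 genes tested, 96 members were higher after rhCYGB (45.5%), 59 were lower (28%) and 56 did not pass an adjusted p of 0.05. The background was 39% higher and 38.6% lower over all genes tested, as most genes tested passed in 1 direction or the other. At the stricter call used from here on (past an adjusted p of 0.05, and changed at least 2-fold), 27 members were higher (12.8%) and 20 lower (9.48%), against 12.4% higher and 14.7% lower over all genes. The share of members called higher at 2-fold was therefore near the background, and the share called lower was under it. None of the 47 called members had overlapping groups, but groups without overlap were common in general. Of the 211 tested members 102 were higher and 61 lower without overlap, against 5866 and 5846 of all 14728 genes tested. The balance depended on scaling: with total counts as library size 25 members were higher and 27 lower at 2-fold, with 79 and 71 passing, and with upper-quartile scaling 25 and 26, with 86 and 68 passing.

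The median log2 fold change (rhCYGB over control) of the members was 0.20, with quartiles of -0.34 and 0.67 and a range from -1.98 to 2.90, while the median over all genes tested was -0.0046. Like-named genes on other chromosomes had a median of 0.31 over 230 tested, with 43 higher and 15 lower at 2-fold (18.7% and 6.52%). For the other 874 tested genes of chromosome 19 the median was 0.029, with 117 higher and 111 lower at 2-fold (13.4% and 12.7%). The members thus lay between the other genes of their chromosome and the like-named genes elsewhere, and no test of these differences was made because genes are not replicates. With limma on log2(FPKM + 1) instead, 11 members were higher and 1 lower at 2-fold, since the pseudocount shrinks the change of weakly expressed genes.

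**Figure D1:**
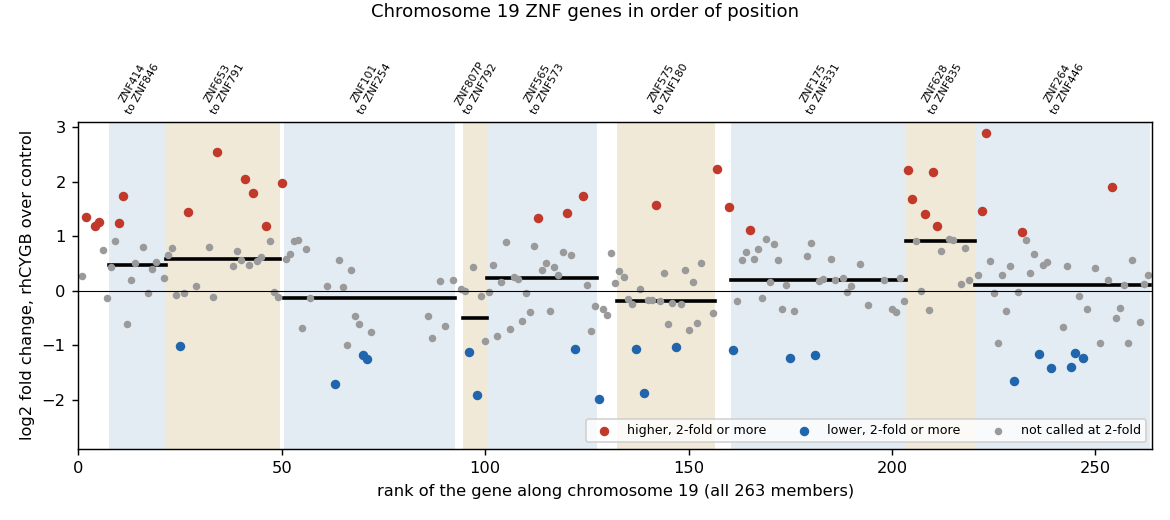
Log2 fold change (rhCYGB over control, 3 libraries each) of the 211 tested members against their rank along chromosome 19; red and blue points are called higher and lower at 2-fold, gray points are not called at 2-fold, shaded bands are the 9 clusters with 5 or more tested members and black bars their medians. The medians run from -0.50 to 0.92, and rises and falls stand side by side in most bands.

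To compare clusters, members were sorted by their deposited start and a new cluster was begun wherever the gap to the next member was over 500 kb. This gave 20 clusters, of which 9 held 5 or more tested members, with 244 of the 263 members. In 6 of the 9 the median log2 fold change was above that of all genes and in 3 it was below. Positions in Mb are those of the deposited table, whose build is not named and is not GRCh38.

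The cluster from ZNF628 to ZNF835 (55.99 to 57.18 Mb) had the highest median, 0.92 over 14 tested members. Of these, 10 passed the test upwards and 1 downwards. At 2-fold 5 rose (35.7%, against 12.4% of all genes) and none fell (against 14.7%). The median CPM of its members was 12.2, 12.4 and 11.8 in the control libraries and 22.8, 22.1 and 22.1 in the rhCYGB libraries, so every treated library was above every control. Their summed CPM rose from 248 ± 5.57 to 546 ± 17.4 (SD, n = 3 each). This stretch also differed in kind: 9 of its 14 tested members lacked the KRAB pattern, and all 5 that rose 2-fold (ZNF628, ZNF579, ZNF784, ZNF581 and ZNF787) were among those 9, whose median was 1.19. Its 5 tested KRAB members (ZNF582, ZNF583, ZNF471, ZNF470 and ZNF71) had a median of 0.79, with 3 passing upwards and none at 2-fold. With a gap of 250 kb the cluster split, and its first piece, ZNF628 to ZNF581, had a median of 1.40 over 7 tested members. With a gap of 1 Mb it merged with the next cluster, to a median of 0.28 over 52 tested members, and ZNF653 to ZNF791 was then highest.

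Within that piece the neighbours ZNF580 and ZNF581 moved in opposite directions although the deposited table puts only 178 bases between them. ZNF581, a short protein of few fingers, had FPKM values of 24.0, 25 and 23.3 in control and 101, 93.1 and 96.6 after rhCYGB. ZNF580 had 22.9, 20.5 and 22.4 in control and 15.8, 15.7 and 15.1 after rhCYGB. The pair started at like levels and ended far apart, with log2 fold changes of 2.17 (SE 0.047, adjusted p 6.03e-15) for ZNF581 and -0.35 (SE 0.0618, adjusted p 0.000104) for ZNF580 by the edgeR quasi-likelihood test. ZNF865, 1 gene before ZNF784 in the table, had a log2 fold change of -0.00064 and did not pass.

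The cluster from ZNF653 to ZNF791 (11.59 to 12.74 Mb) came next, with a median of 0.59 over 22 tested members. In it 14 members passed upwards and 1 downwards, with 5 and 1 at 2-fold (22.7% and 4.55%, against 12.4% and 14.7% of all genes). Its median CPM went from 4.29, 4.48 and 4.4 to 8.96, 8.97 and 8.52. ZNF433, ZNF44 and ZNF442 were its largest rises. The single fall was ZNF833P, a pseudogene of 30, 50 and 30 control counts. Here 19 of the tested members carried the KRAB pattern, with a median of 0.62, so a high median was also found among KRAB members.

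The next cluster on the same arm, ZNF414 to ZNF846 (8.57 to 9.90 Mb), had a median of 0.47 over 12 tested members. Of these, 8 passed upwards and 1 downwards (ZNF559). At 2-fold the cluster had 2 higher (ZNF317 and ZNF699, 16.7% against 12.4% of all genes) and none lower (against 14.7%). Its median CPM was 14.2 ± 0.558 in control and 23.2 ± 1.37 after rhCYGB (SD, n = 3 each). ZNF317 had 1289, 1558 and 1444 counts in control and 2968, 2777 and 3148 after rhCYGB, a log2 fold change of 1.25 (SE 0.0459, edgeR adjusted p 1.65e-12). In the small group ZNF554 to ZNF77, further towards the tip of that arm, 3 of 4 tested members rose 2-fold or more, namely ZNF555, ZNF57 and ZNF77.

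The clusters at 36.67 to 38.27 Mb (ZNF565 to ZNF573), 52.07 to 54.08 Mb (ZNF175 to ZNF331) and 57.70 to 59.00 Mb (ZNF264 to ZNF446) had medians closer to that of all genes, 0.24, 0.20 and 0.11. The first had 13 members passing upwards and 6 downwards of 26 (50% and 23.1%). The second had 13 and 8 of 33 (39.4% and 24.2%), and the third 17 and 15 of 38 (44.7% and 39.5%). Over all genes the shares were 39% and 38.6%. At 2-fold the first had 3 higher and 1 lower (11.5% and 3.85%), and the second 1 and 3 (3.03% and 9.09%). The third held the largest rise of all members (ZNF460), with 4 members higher and 6 lower at 2-fold (10.5% and 15.8%, near the 12.4% and 14.7% of all genes). Its median relative to all genes was 0.12, and 0.076 without control replicate 3. ZNF569, with 366, 498 and 412 counts in control and 1017, 925 and 1064 after rhCYGB, had the lowest p of the first (log2 fold change 1.43, SE 0.0694, edgeR adjusted p 3.89e-11). ZNF841 had that of the second, with 288, 332 and 280 against 529, 450 and 549 counts (0.96, SE 0.0908, edgeR adjusted p 1.23e-07).

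Medians were below that of all genes in 3 clusters. In ZNF101 to ZNF254 (19.78 to 24.31 Mb), next to the centromere, the median was -0.14 over 23 tested members. Of these, 8 passed upwards and 11 downwards (34.8% and 47.8%, against 39% and 38.6% of all genes). At 2-fold the cluster had none higher and 3 lower (13.0%), against 12.4% and 14.7% of all genes, so the share of falls was near the background. Its median CPM was 6.87, 6.29 and 6.67 in control and 4.63, 3.58 and 3.61 after rhCYGB, but its summed CPM went only from 167 ± 8.75 to 156 ± 4.63 (SD, n = 3 each), so the groups lay close in the sum. Relative to all genes its median was -0.13, and it was -0.22 without control replicate 1, -0.065 without control replicate 2, -0.41 with no filter, -0.24 with a GC and length trend removed and -0.0014 by limma with a pseudocount of 1 FPKM. It had the most members at 0: 16 of its 42 members had 0 counts in every library and 19 (45.2%) were not tested, among them ZNF43, ZNF208, ZNF257 and ZNF676, which stand in a row from 21.99 to 22.38 Mb. Close relatives share sequence here, and how reads that match several genes were counted is not given in the sources used here. ZNF91, which is known to silence SVA transposable elements, had the lowest p of this cluster, with 661, 893 and 841 counts in control and 353, 378 and 404 after rhCYGB (log2 fold change -0.88, SE 0.0886, edgeR adjusted p 2.56e-07).

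In ZNF575 to ZNF180 (44.04 to 45.00 Mb) the median was -0.19 over 22 tested members, with 4 passing upwards and 9 downwards. At 2-fold 1 was higher and 3 were lower (4.55% and 13.6%, against 12.4% and 14.7% of all genes). The single rise at 2-fold was ZNF222, at 135, 187 and 187 counts in control and 500, 356 and 467 after rhCYGB (log2 fold change 1.57, SE 0.123, edgeR adjusted p 1.28e-08). Its neighbours on either side, ZNF230 and ZNF223, had log2 fold changes of -0.17 and -0.20 and did not pass. The lowest median, -0.50, belonged to ZNF807P to ZNF792 (35.03 to 35.46 Mb), but over 6 tested members only, with 1 passing upwards and 3 downwards. Its 3 members that passed downwards were ZNF302, ZNF599 and ZNF792, and the last had a log2 fold change of -0.91. ZNF302 had 1025, 1243 and 1122 counts in control and 440, 405 and 510 after rhCYGB (-1.13, SE 0.0694, edgeR adjusted p 6.82e-10). When at least 10 counts were required in every library the median of that cluster was -0.94 relative to all genes, and -0.14 by limma with a pseudocount of 1 FPKM.

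**Figure D2:**
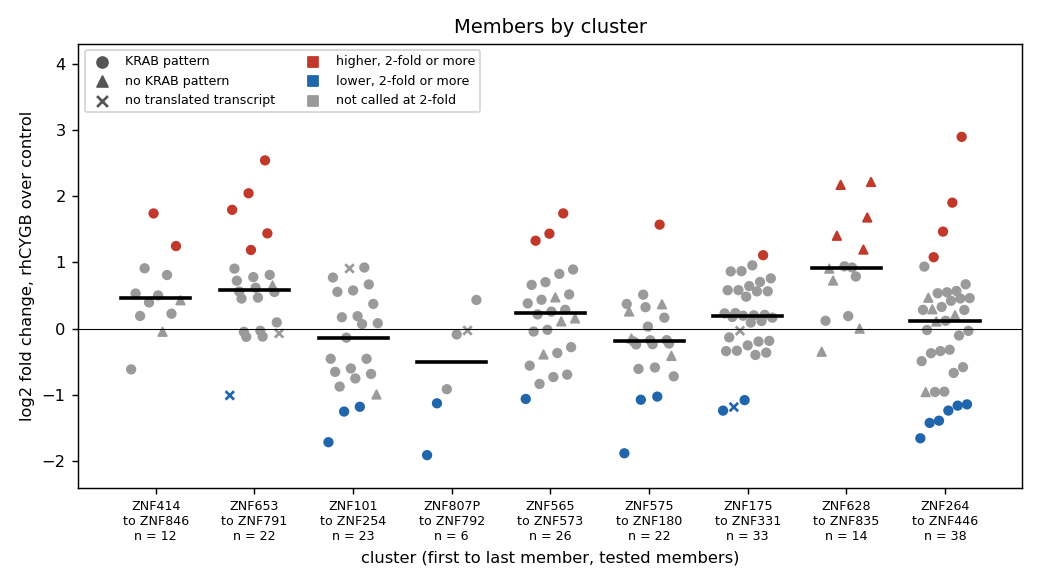
Log2 fold change of each tested member by cluster, in order along the chromosome; circles carry a KRAB pattern, triangles do not, crosses have no translated transcript, color marks the calls at 2-fold and bars are medians. The triangles of ZNF628 to ZNF835 hold all 5 of its red points. The cluster ZNF101 to ZNF254 has no red points and 3 blue ones (13.0%, against 14.7% lower over all genes).

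The 15 tested members outside the 9 clusters included 6 that rose and 1 that fell at 2-fold, against 12.4% and 14.7% of all genes. Besides ZNF555, ZNF57 and ZNF77 the rises were ZNF333, ZNF296 and ZNF473, each standing alone by the 500 kb rule. ZNF546, ZNF780B and ZNF780A, a group of 3, all passed downwards. Between adjacent members that do not overlap, the signs of the fold change were the same in 102 of 188 pairs (54.3%). For adjacent pairs of other chromosome 19 genes the figure was 378 of 770 (49.1%). Where both neighbours passed the test it was 58 of 100 (58.0%) against 219 of 461 (47.5%). Close position alone thus told little about the direction of a neighbour.

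The 8 largest rises, among 27 members that rose 2-fold with at least 50 counts in the higher group and no overlap, were led by ZNF460 (chr19:57791335-57805437 in the deposited table). It had 39, 77 and 63 counts in control and 444, 335 and 383 after rhCYGB, and its FPKM went from 0.350 to 2.38. Each treated library was several times above each control, at a log2 fold change of 2.90 (SE 0.162, edgeR adjusted p 2.27e-10). Its antisense gene ZNF460-AS1 had at most 15 counts in any library.

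ZNF433 (chr19:12125532-12146556) had 58, 78 and 70 counts in control and 364, 315 and 369 after rhCYGB, a log2 fold change of 2.54 (SE 0.128, edgeR adjusted p 6.14e-11). Its antisense gene ZNF433-AS1 went the other way, with a log2 fold change of -0.54. Whether counting used the strand is not given in the sources used here, so reads of such overlapping pairs may be mixed. Its cluster mate ZNF44 had 159, 164 and 168 counts in control and 599, 529 and 649 after rhCYGB (2.04, SE 0.1, edgeR adjusted p 4.63e-11). Both were low in control, and groups without overlap were a condition of their choice.

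Of the 8, 3 lacked a KRAB pattern. ZNF296, whose mouse counterpart is known from embryonic stem cells, had 291, 354 and 285 counts in control and 1416, 1141 and 1249 after rhCYGB, a log2 fold change of 2.23 (SE 0.0746, edgeR adjusted p 6.00e-13). GEMIN7, which overlaps it, had -0.11 and did not pass. ZNF628 had 293, 322 and 255 counts in control and 1219, 1099 and 1216 after rhCYGB (2.22, SE 0.0780, edgeR adjusted p 1.05e-12). ZNF581, given above, had the lowest p of all members.

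ZNF333 had 198, 212 and 182 counts in control and 756, 577 and 725 after rhCYGB (log2 fold change 1.99, SE 0.0998, edgeR adjusted p 6.06e-11), while the overlapping gene ADGRE2 had -0.43. ZNF274 (chr19:58694356-58724928) is known for bringing SETDB1 to the ends of zinc finger genes themselves. It had 1178, 1341 and 1205 counts in control and 4141, 3745 and 4293 after rhCYGB, and its FPKM rose from 10.1 to 33.9. At a log2 fold change of 1.90 (SE 0.0459, edgeR adjusted p 1.69e-14) it was the most abundant KRAB member in control and among the clearest rises.

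**Figure D3:**
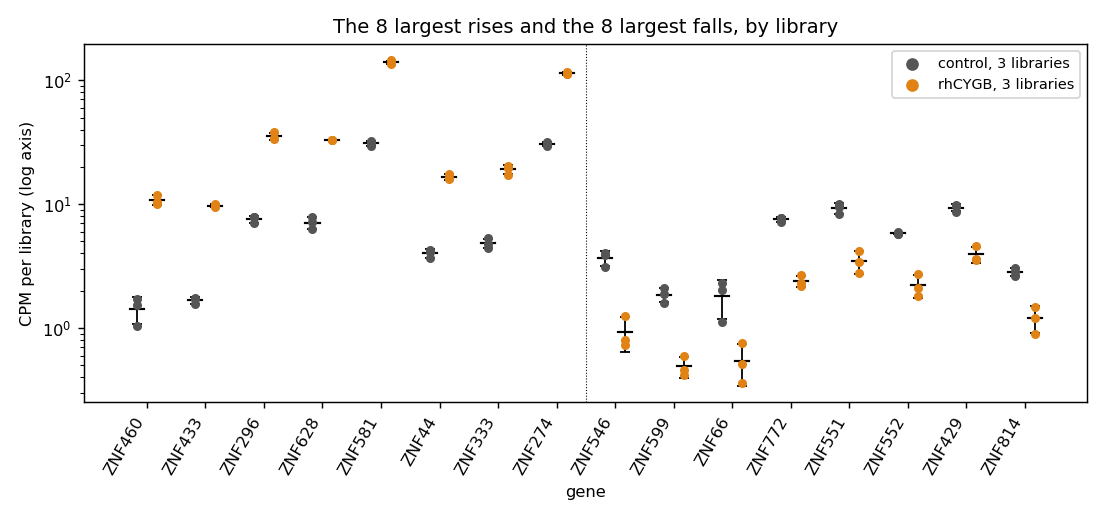
CPM per library (log axis) of the 8 members with the largest rises and the 8 with the largest falls; points are single libraries, bars the mean and SD of 3. The control and rhCYGB points are apart in all 16 by selection, because the naming rule required groups without overlap.

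The 8 largest falls, of 17 that met the same conditions, were of weakly expressed members. ZNF546 (chr19:40502967-40526945) had 144, 181 and 127 counts in control and 30, 42 and 27 after rhCYGB, a log2 fold change of -1.98 (SE 0.229, edgeR adjusted p 1.19e-06). ZNF599 (chr19:35248978-35264120) had 70, 72 and 86 counts against 17, 14 and 22 (-1.91, SE 0.272, edgeR adjusted p 1.14e-05). Both were under 0.6 FPKM in control, and the rule that chose them required groups without overlap. ZNF66 had 75, 50 and 94 counts against 19, 12 and 28 (-1.72, SE 0.342, edgeR adjusted p 0.000306), with the largest SE of the 8.

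ZNF429, of the same cluster as ZNF66, had 325, 442 and 391 counts in control and 172, 119 and 133 after rhCYGB (log2 fold change -1.25, SE 0.127, edgeR adjusted p 2.75e-07). The other 4 of the 8 largest falls all lay between ZNF264 and ZNF446. ZNF772 had 266, 348 and 316 counts against 81, 77 and 99 (-1.66, SE 0.135, edgeR adjusted p 1.98e-08). ZNF551 had 308, 429 and 412 against 128, 92 and 154 (-1.42, SE 0.146, edgeR adjusted p 3.09e-07). For both, groups without overlap were again a condition of the choice.

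ZNF552 had 216, 265 and 235 counts against 78, 60 and 101 (log2 fold change -1.39, SE 0.164, edgeR adjusted p 1.42e-06), and ZNF814 had 99, 136 and 116 against 45, 30 and 55 (-1.24, SE 0.218, edgeR adjusted p 9.64e-05). ZNF814 stands beside its near copies ZNF587B and ZNF587, at -1.14 and -0.10, and reads shared between such genes could have been split by the counting. All 8 falling genes carried a KRAB pattern. Members just short of the 2-fold limit were ZNF714, ZNF837 and ZNF606 at -0.99, -0.96 and -0.96, and just past it ZNF833P, ZNF234 and ZNF793 at -1.01, -1.03 and -1.06.

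The 5 most abundant members in control, by FPKM, were ZNF146, ZNF581, ZNF787, ZNF358 and ZNF428, none with a KRAB pattern. ZNF146, a protein made almost only of fingers, had 26.3, 26.7 and 29 FPKM in control and 34.0, 32.2 and 35.3 after rhCYGB, a log2 fold change of 0.47 (SE 0.0416, edgeR adjusted p 4.98e-08). ZNF787 had 23.2, 22.9 and 23.1 against 48.3, 47.9 and 45.0 (1.19, SE 0.0475, edgeR adjusted p 3.91e-12). ZNF358 had 24.0, 22.5 and 22 against 19.2, 17.7 and 18.5, with -0.14 (SE 0.0523, edgeR adjusted p 0.0223). For ZNF358 the call was lost without control replicate 1 (adjusted p 0.105), without rhCYGB replicate 2 (0.0555) and without rhCYGB replicate 3 (0.0577). ZNF428 had 23.6, 21.9 and 20.3 against 18.4, 16.2 and 18.4, with -0.15 (edgeR adjusted p 0.0588), and passed downwards under several alternatives, for example upper-quartile scaling (adjusted p 0.00116). Of this upper end, ZNF581 and ZNF787 rose 2-fold or more and the other 3 did not reach 2-fold.

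**Figure D4:**
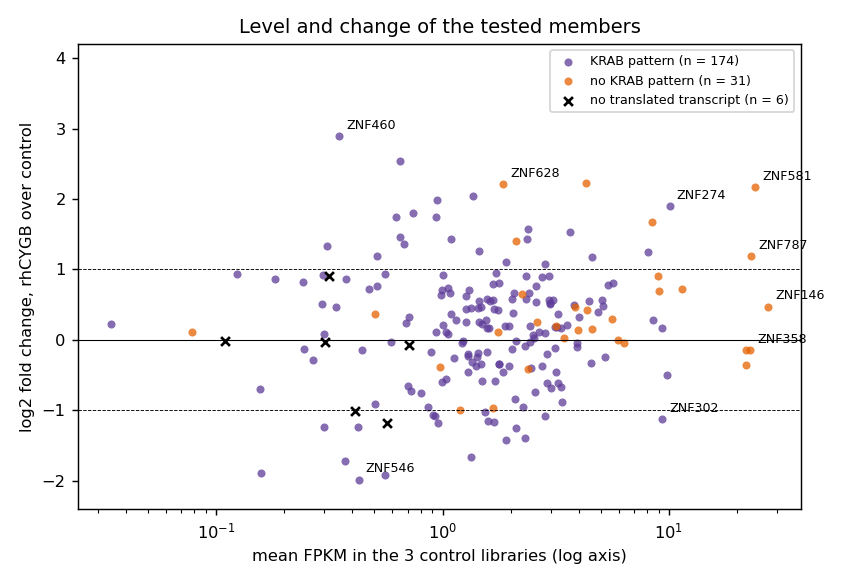
Log2 fold change against mean FPKM in the 3 control libraries (log axis) for the tested members, colored by the KRAB pattern; dashed lines mark 2-fold. The 174 KRAB members spread to both sides at low level, and the 31 without it reach higher levels with no point below -1. Of those 31, ZNF714 and ZNF837 lie just above that line, at -0.99 and -0.96.

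The KRAB pattern went with a lower level. The 174 tested KRAB members had a median control FPKM of 1.58 and the 31 without it 4.31. At 2-fold 21 KRAB members rose and 18 fell (12.1% and 10.3%), while 6 without it rose and none fell (19.4% and 0%), against 12.4% and 14.7% of all genes, and their medians were 0.20 and 0.26. Like-named genes elsewhere were split in a like way. With the pattern 16.3% rose and 9.78% fell at 2-fold (median 0.22), and without it 21.4% and 4.58% (median 0.42). The differences in falls were not tested. The absence of falls among members without the pattern depended on the 2-fold limit. ZNF714 and ZNF837 lack the pattern, passed downwards and stood just short of it, at -0.99 and -0.96. Without the 2-fold limit 80 and 52 KRAB members passed upwards and downwards, and 15 and 5 of the members without the pattern. Base composition moved with this split: the median GC content of the transcripts was 45.6% for members with the pattern, 61.4% for members without it and 50.4% over all genes tested, and its part in the result was not tested. With a trend on GC content and length removed from the counts, 27 members were higher and 18 lower at 2-fold, and the cluster ZNF628 to ZNF835 had a median of 0.90 relative to all genes.

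By number of fingers the medians followed no steady order. Of 11 tested members with 21 fingers or more, 3 passed upwards and 6 downwards, with a median log2 fold change of -0.34, and ZNF546 and ZNF814 were the 2 that fell 2-fold. Of 12 with at most 5 fingers, 8 passed upwards and 2 downwards, with a median of 0.36, against 39% and 38.6% passing over all genes. The classes of 6 to 10, 11 to 15 and 16 to 20 fingers had medians of 0.29, 0.18 and 0.30. Transcript estimates could be compared for few members: of 126 with several transcripts, 49 had the same leading transcript in all libraries of each group, and 0 of these led with another after rhCYGB, a small number to set beside 141 of 5105 among all genes. The others, ZNF772 and ZNF429 among them, led with different transcripts in libraries of the same group and were left out.

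Genes looked up for the silencing machinery around KRAB proteins mostly passed downwards. Of 17 co-repressor genes, all tested, 14 passed downwards (82.4%, against 38.6% of all genes), 1 upwards and 2 did not pass, with a median log2 fold change of -0.54. At 2-fold 4 were lower (23.5%, against 14.7%) and none higher. UHRF1, which guides maintenance DNA methylation, had 4992, 5953 and 5928 counts in control and 571, 444 and 528 after rhCYGB (-3.26, SE 0.0592, edgeR adjusted p 9.86e-16). CBX5, which encodes heterochromatin protein 1 alpha, had 2324, 2807 and 2829 against 740, 710 and 842 (-1.60, SE 0.0626, edgeR adjusted p 3.24e-12). Those were the largest falls of the list, and UHRF1 is also known to follow the cell cycle.

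HDAC1, a histone deacetylase, had 8758, 10483 and 9719 counts in control and 3221, 2810 and 3617 after rhCYGB (log2 fold change -1.39, SE 0.0497, edgeR adjusted p 1.19e-12), and TASOR, a subunit of the HUSH silencing complex, had 3234, 3703 and 3619 against 1531, 1473 and 1602 (-1.0, SE 0.0476, edgeR adjusted p 3.18e-11). TASOR lay at the 2-fold limit. The other HUSH genes MPHOSPH8 and PPHLN1 had -0.54 and -0.60, and the maintenance methyltransferase DNMT1 had -0.79. SETDB1, the methyltransferase that TRIM28 recruits, was the only gene of the list that passed upwards, by 0.19, and it did not pass with total-count scaling, upper-quartile scaling, limma or without control replicate 3.

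TRIM28 itself had 13986, 16705 and 15141 counts in control and 13516, 11281 and 13179 after rhCYGB. Its log2 fold change was -0.08 (SE 0.0364, edgeR adjusted p 0.0633), and over 17 alternatives it ranged from -0.24 to -0.05 and passed the threshold, downwards, in several. TRIM28 thus changed less than most genes of the list, not all of which are its direct partners. SETDB1 and CBX1, a further heterochromatin protein 1 gene, also changed little, at 0.19 and -0.15. So did ATF7IP and CHD3 of the same list, at -0.12 and -0.11, and CHD3 did not pass.

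**Figure D5:**
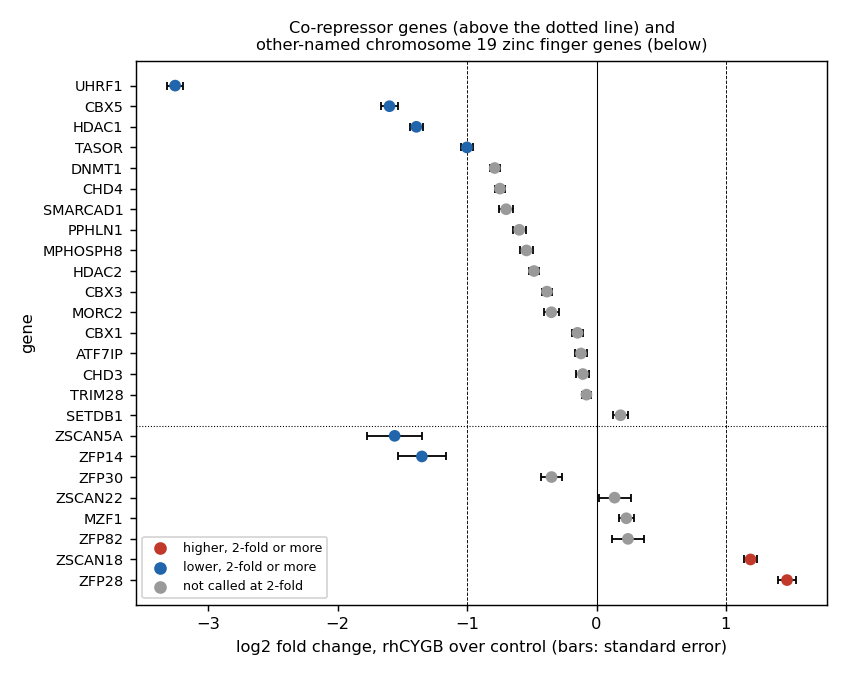
Log2 fold change with its standard error for the 17 co-repressor genes (above the dotted line) and the 8 tested chromosome 19 zinc finger genes with other names (below); dashed lines mark 2-fold. All co-repressor points but SETDB1 lie below 0, whereas the other-named genes lie on both sides.

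Chromosome 19 zinc finger genes with other kinds of symbol also went in both directions. Of 13 looked up, PEG3, ZIM2, ZSCAN1 and ZSCAN4 had 0 counts in all libraries and 8 were tested. Of these, 3 passed upwards and 3 downwards (37.5% each), near the 39% and 38.6% of all genes. At 2-fold 2 were higher and 2 lower (25% each, against 12.4% and 14.7% of all genes). ZFP28 had 473, 487 and 496 counts in control and 1215, 1057 and 1270 after rhCYGB (log2 fold change 1.47, SE 0.0696, edgeR adjusted p 2.96e-11), and ZSCAN18 had 1139, 1330 and 1120 against 2484, 2232 and 2440 (1.19, SE 0.0510, edgeR adjusted p 9.38e-12). Falls of 2-fold or more were found for ZSCAN5A, with 134, 152 and 144 counts against 51, 27 and 50 (-1.56, SE 0.213, edgeR adjusted p 7.18e-06), and ZFP14, with 191, 177 and 224 against 60, 61 and 83 (-1.35, SE 0.186, edgeR adjusted p 8.10e-06). In both pairs the libraries of the groups did not overlap.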

How the data were processed

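RNA-seq values of 6 MIA PaCa-2 libraries (3 control, 3 rhCYGB) were used, grouped by their labels. Per the labels and the study's methods, polyadenylated RNA was made into stranded libraries, reads were checked with FastQC 0.11.7, mapped with HISAT2 2.1.0 and assembled with StringTie 2.1.3b. The authors deposited raw read counts per gene and per transcript, in whole numbers, and FPKM values scaled by transcript length and mapped reads. The labels name mm10, a mouse build, and deposited positions are not those of GRCh38, so they are given as deposited. A further 12 per-sample columns (TPM) were not used.

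Counts were fitted in R 4.3.3 with edgeR 4.0.16: filterByExpr, TMM scaling, glmQLFit and glmQLFTest on all 6 libraries with group as the only term, two-sided, and Benjamini-Hochberg adjustment over the genes tested. CPM values use TMM-scaled totals. Replicate numbers did not pair libraries (correlations of same-numbered deviations -0.0479, 0.00715 and 0.00554). Within groups, libraries differed by 4.76 to 6.76 times counting noise (chi-square over degrees of freedom). Fits were tested on simulated counts. DESeq2 1.42.0 and limma 3.58.1 served as alternatives, with other scalings, filters, cluster gaps, single libraries left out, and a GC and length trend added after seeing the data. Totals and floors cover counting error only.

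Proteins were translated from GENCODE 29 transcripts, in place of the RefSeq proteins foreseen, and searched for fingers (2 to 4 residues, 12, then 3 to 5 between the metal-binding residues) and a KRAB letter pattern. Promoter windows are from RefSeq, GRCh38.p14. Of 211 tested members 206 had a GC value, as had 13656 of 14728 genes.

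Named members were the 8 largest rises and 8 largest falls at 2-fold with a mean of at least 50 counts in the higher group and no overlap, the 5 with the highest control FPKM, the member with the lowest p in each cluster, and listed genes at 2-fold with TRIM28. Other names were chosen after their values were seen. Members and lists were chosen with earlier results of these data known. The listed symbol ZFP112 was not found among the deposited gene symbols, so no values are given under that name.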

Additional observations from a re-analysis of the deposited data

How the results depend on the processing

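No member called at 2-fold changed direction under any alternative run. Direction was less stable among members that passed below 2-fold. ZNF414 passed upwards on counts (log2 fold change 0.43), but its mean FPKM was 4.34 in control and 3.93 after rhCYGB. The median of other chromosome 19 genes, which was not tested, changed sign once. Called members at 2-fold ranged from 27 to 31 higher and 20 to 23 lower with single libraries left out, passing members from 89 to 97 higher and 51 to 59 lower. The replicate block (the pairing is by number only) gave 27 higher and 21 lower, 47 of its 48 calls shared with the fit without it. Total-count and upper-quartile scaling moved the median of all genes to -0.17 and -0.15, so medians here are relative to it, and under them more members were lower than higher at 2-fold (25 higher and 27 lower, 25 and 26), with 79 and 71, and 86 and 68, passing upwards and downwards. The members' relative median was 0.17 to 0.24 without single libraries, and 0.11 with limma on log2(FPKM + 1), under which members called were 11 higher and 1 lower, the like-named genes elsewhere had 0.19, the lowest cluster -0.14 and the highest 0.56. With a pseudocount of 0.1 the lowest cluster was -0.39 and the highest 0.77. Without a filter the like-named genes elsewhere had 0.29 and other chromosome 19 genes 0.082. With at least 10 counts in every library the lowest cluster was -0.94. With the GC and length trend removed it was -0.93 and other chromosome 19 genes changed sign to -0.022. A limit of 1.5-fold gave 58 higher and 38 lower. Gaps of 250 kb and 1 Mb gave a highest cluster of 1.41 (ZNF628 to ZNF581) and 0.59 (ZNF653 to ZNF791). Left-out libraries moved the lowest cluster from -0.63 to -0.42, the highest from 0.86 to 0.99, like-named genes elsewhere from 0.28 to 0.33, other chromosome 19 genes from 0.018 to 0.050 and co-repressors passing upwards from 0 to 1. That count was 0 with total-count scaling, upper-quartile scaling and both limma fits. The cause of these shifts was not tested, apart from what pseudocounts and gap rules do by construction. Depth limits the 52 untested members and those with few counts.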

Other observations

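A few members outside the naming rule, chosen after their values were seen, have known roles of their own. ZNF473 (ZFP100), a component of the U7 small nuclear ribonucleoprotein that processes histone transcripts, had 682, 792 and 740 counts in control and 1969, 1688 and 1936 after rhCYGB, a log2 fold change of 1.53 (SE 0.0520, edgeR adjusted p 7.16e-13). ZNF350 (ZBRK1), known as a partner of BRCA1, had 163, 234 and 199 against 389, 326 and 406 (1.11, SE 0.111, edgeR adjusted p 2.22e-07). ZNF93, known to silence some LINE-1 elements, had 39, 91 and 62 counts against 130, 64 and 91 (log2 fold change 0.77, SE 0.268, edgeR adjusted p 0.0163), with overlapping groups. ZNF331, an imprinted gene, had -0.20.

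Some near relatives that stand close together parted. ZNF772 fell 3.15-fold while ZNF773, 2 members further on, rose 2.11-fold, with 282, 399 and 283 counts in control and 538, 585 and 646 after rhCYGB. ZNF585A and ZNF585B had log2 fold changes of 0.52 and -0.37, and both passed. ZNF221 had one of the larger falls at -1.88 but only 14, 24 and 14 counts in control and 7, 3 and 2 after rhCYGB, so it is known with little precision (SE 0.545). Of the 14 pseudogenes among the members 5 were tested, and ZNF137P and ZNF833P were called lower.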
